A study of Homo sapiens with 6 samples.

Results

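Peaks of lactylated lysine 5 of histone H4 (H4K5la) were examined over the genes of the hexokinase family and of the glucokinase regulator in PLC/PRF/5, a long-established cell line from a human hepatocellular carcinoma. The 5 genes were HK1, HKDC1, HK2, HK3 and GCKR, of 19974 protein-coding genes in all. They were taken by name, as members of the enzyme family and this regulator. For each gene, all peaks that touched its RefSeq span on hg38 or the 5 kb on either side were collected. Lactylation is an acyl mark derived from lactate, and it was mapped by chromatin immunoprecipitation and sequencing (ChIP-seq). The lactate group had 2 libraries (replicates 2 and 3) of cells cultured with 20 mM lactate for 24 h, and the control group had 2 libraries (replicates 2 and 3) of cells labelled control for the treatment. All came from the same line, and nothing in the labels says that the replicates were separate cultures, so the p-values refer to the spread between these libraries only, which may be technical. Each treatment also had 1 input library without antibody, whose reads were not analysed here. The comparison asks where these genes of glucose phosphorylation and its regulation carried the mark, and how that differed after added lactate, the end product of glycolysis.

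Hexokinases add a phosphate to glucose on its entry into the cell, and the product, glucose 6-phosphate, feeds glycolysis, glycogen and the pentose phosphate pathway. HK1 is the widely expressed form and HK2 the form that many tumours express strongly, and both can sit on the outer mitochondrial membrane. HK3 is best known from blood cells, and HKDC1 encodes a hexokinase-like protein that lies beside HK1 in the genome. Normal hepatocytes rely on glucokinase, and GCKR encodes the liver protein that binds and inhibits it. Peaks of a histone mark do not measure how strongly any of these genes is expressed.

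The annotated starts of the genes were compared with the peaks first, because only 1 of the 12 starts lay near a peak in any library. It is an internal start of HK1, shown first, with capitals marking the 223 bases that lay under a peak in both control libraries (chr10:69334364-69334663, plus strand). A GC-rich start of HK1 further upstream (chr10:69318814-69319113), the 5′-most start of HK2 (chr2:74833877-74834176) and the start of GCKR (chr2:27496589-27496888), all on the plus strand, are shown for contrast, since no library had a peak over them. In these 3 the capitals mark the motifs found on either strand, and GCKR had none. Each line holds 250 bases before to 50 bases after a start, from RefSeq on GRCh38.p14.
HK1, internal start: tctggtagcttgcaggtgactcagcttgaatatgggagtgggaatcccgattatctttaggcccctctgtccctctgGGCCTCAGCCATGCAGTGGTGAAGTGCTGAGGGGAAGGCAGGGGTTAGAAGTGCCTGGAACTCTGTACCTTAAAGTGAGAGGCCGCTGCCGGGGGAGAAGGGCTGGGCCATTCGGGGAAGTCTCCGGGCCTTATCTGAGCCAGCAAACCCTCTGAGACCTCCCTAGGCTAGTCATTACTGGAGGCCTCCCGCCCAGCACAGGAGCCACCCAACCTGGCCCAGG
HK1, upstream start: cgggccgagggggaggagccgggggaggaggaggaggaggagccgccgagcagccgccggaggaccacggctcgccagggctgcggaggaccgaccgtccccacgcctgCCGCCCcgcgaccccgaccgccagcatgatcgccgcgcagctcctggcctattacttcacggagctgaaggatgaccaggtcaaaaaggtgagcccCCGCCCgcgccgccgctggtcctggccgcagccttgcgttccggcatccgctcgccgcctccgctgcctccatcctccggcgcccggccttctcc
HK2, first start: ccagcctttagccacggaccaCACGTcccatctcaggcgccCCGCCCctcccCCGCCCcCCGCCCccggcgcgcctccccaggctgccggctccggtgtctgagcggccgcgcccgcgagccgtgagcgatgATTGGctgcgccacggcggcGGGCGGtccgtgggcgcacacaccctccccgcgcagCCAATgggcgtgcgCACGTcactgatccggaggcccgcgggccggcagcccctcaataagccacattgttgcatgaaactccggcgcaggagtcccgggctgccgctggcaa
GCKR, start: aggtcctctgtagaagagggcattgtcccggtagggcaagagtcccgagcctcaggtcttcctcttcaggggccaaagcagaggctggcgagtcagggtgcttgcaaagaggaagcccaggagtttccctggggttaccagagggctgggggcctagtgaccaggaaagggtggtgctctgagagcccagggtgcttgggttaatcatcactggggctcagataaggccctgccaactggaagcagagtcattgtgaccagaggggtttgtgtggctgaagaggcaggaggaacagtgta

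The motifs searched on both strands were the E-box CACGTG, the hypoxia response element core ACGTG (which the E-box contains), the GC box GGGCGG, the CCAAT box CCAAT and the TATA box TATAAA. Of 34961 promoters of this length in the RefSeq table, 7.27% held the E-box, 21.4% the hypoxia core, 45% the GC box, 34.6% the CCAAT box and 11.5% the TATA box. The first HK2 promoter held 2 hypoxia cores, 4 GC boxes and 2 CCAAT boxes, and the second HK2 promoter, at chr2:74834920-74835219, held 2 E-boxes, 4 hypoxia cores and 2 GC boxes. The internal HK1 promoter held 1 GC box, the upstream HK1 promoter 2 GC boxes, and the HK3 and HKDC1 promoters 1 CCAAT box each. In base composition, the peak-free upstream HK1 and first HK2 promoters both had a GC content of 74.3%, with 37 and 38 CG dinucleotides, while the peak-bearing internal HK1 promoter had 59.7% and 6. The median over all promoters was 58.7% and 14. These matches describe the letters in the windows and say nothing of which factors bind there.

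A peak lay within 1 kb of the internal HK1 start in each of the 4 libraries, but at different distances. In lactate replicates 2 and 3 the nearest peak edge was 428 and 383 bp downstream of this start, whereas in both control libraries a peak covered it. The nearest summit, the point of highest signal in a peak, was 668 and 666 bp downstream in lactate replicates 2 and 3, against 603 and 4 bp downstream in control replicates 2 and 3. So the start itself was covered in the control libraries and in neither lactate library. How many other starts show this pattern was not computed, and the shares that follow are for peaks within 1 kb. Among 15812 coding genes with a start in the table, 7.8% had a peak within 1 kb of a start in both lactate libraries, 13.3% in both control libraries and 6.02% in all 4. No start of HK2, HK3, HKDC1 or GCKR had a peak within 1 kb in any library. The closest approaches were 1101 bp at HK3, in control replicate 2, then 10477 bp at HKDC1, 30050 bp at HK2 and 117717 bp at GCKR.

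The peak lists held 37951 and 38402 peaks in lactate replicates 2 and 3, covering 22 and 21.8 Mb, against 52215 and 52959 peaks in control replicates 2 and 3, covering 41.0 Mb in each. The lists give no sequencing depth. Hepatocyte marker genes were checked for peaks: of 13, only HNF4A and APOA1 held a peak in all 4 libraries, and 8 of them, ALB, APOB, TTR, AFP, FGA, FGB, FGG and AHSG, held none in any. Of the blood, endothelial and stromal markers, 4 genes each, 2, 3 and 3 held a peak in all 4 libraries, and PTPRC, KDR and DCN held none. Over all coding genes, 33.0% held a peak in all 4 libraries and 40.6% held none in any. The difference between these lists was not tested, and the peaks give no check of the labelled cell type.

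The map of peaks along the genes shows where the mark lay. Summits outside the family's genes were found downstream of HK3, in UNC5A, numbering 3 and 2 in lactate replicates 2 and 3, against 1 and 2 in control replicates 2 and 3. Control replicate 3 had 1 more downstream of HK1, and all other summits lay inside HK1, HKDC1, HK2 or HK3.

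**Figure D1:**
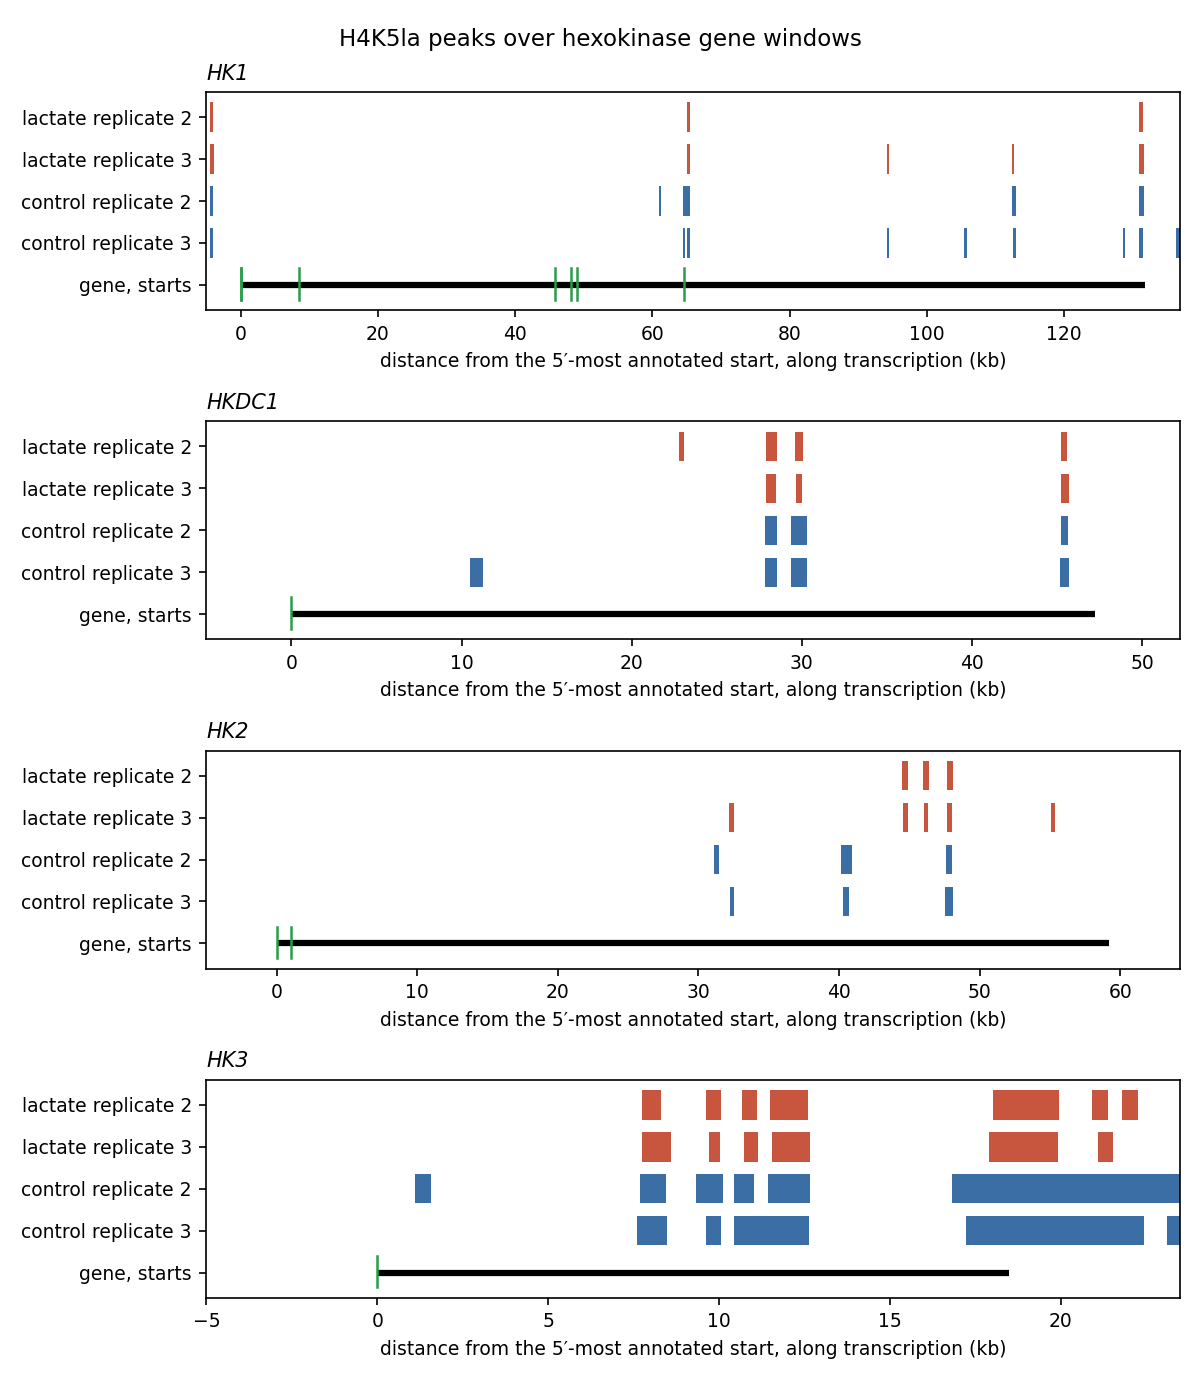
H4K5la peaks over HK1, HKDC1, HK2 and HK3, 1 row per library (lactate above control), drawn to scale and cut off at the window's edge, against the distance in kb from the 5′-most annotated start along transcription. The black bar is the gene and green ticks are its annotated starts. Only the internal HK1 start lies close to a peak, and GCKR is not drawn because it held none.

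HK1 lies at chr10:69270000-69401882 on the plus strand and spans 131883 bp with 7 annotated starts. Its window held 3 and 5 peaks in lactate replicates 2 and 3, against 5 and 9 peaks in control replicates 2 and 3. The peaks covered 1370 and 2332 bp in lactate replicates 2 and 3, against 3045 and 3755 bp in control replicates 2 and 3. The numbers of peaks met at 5, while the covered lengths did not overlap and were lower in both lactate libraries. The covered length averaged 1851 ± 680 bp in lactate and 3400 ± 502 bp in control libraries (SD, n = 2 each), a ratio of 0.544. A two-sided exact permutation test, which goes through the 6 ways of labelling these libraries, gave p = 0.333, the smallest this design allows, and 0.922 after Benjamini-Hochberg adjustment over all 19974 genes. For the number of peaks the exact permutation p was 0.667. Over all coding genes, the number of peaks was lower in both lactate than in both control libraries for 19.4% and higher for 2.25%. The covered length was lower for 32.8% and higher for 3.4%. These shares count the 40.6% of genes with no peak in any library, which could be neither.

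The HK1 peaks fell into 9 regions, where peaks that shared at least 1 bp were merged across libraries. Only 3 regions held a peak in all 4 libraries, and none was specific to a treatment. The first, at chr10:69265533-69266042, lies in the last part of HKDC1 and belongs to both windows. The second, at chr10:69334405-69335462, takes in the internal start, and the authors' fold enrichment over background at its strongest summit was 8.65 and 14.3 in lactate replicates 2 and 3, against 9.0 and 8.51 in control replicates 2 and 3. The third, at chr10:69400938-69401741, lies at the downstream end of the gene and had fold enrichments of 12.5 and 11.7 in lactate against 8.20 and 12.4 in control replicates 2 and 3. The fold enrichments of the groups overlapped in both of these regions. The other 6 regions were found in 1 to 3 libraries, and 4 of them in a single control library: 1 in control replicate 2 and 3 in control replicate 3. One of these 6 lies outside HK1, over the neighbouring TACR2.

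HKDC1, at chr10:69220332-69267552 on the plus strand, ends 2447 bp before HK1 begins, so the windows of the pair share 7553 bp. It spans 47221 bp with 1 annotated start, and the noncoding LOC101928994 overlaps its upstream part. The window held 4 and 3 peaks in lactate replicates 2 and 3, against 3 and 4 peaks in control replicates 2 and 3. They covered 1831 and 1435 bp in lactate replicates 2 and 3, against 1990 and 2938 bp in control replicates 2 and 3. The numbers were alike while the covered length was lower in both lactate libraries, at 1633 ± 280 bp in lactate and 2464 ± 670 bp in control libraries (SD, n = 2 each; exact permutation p = 0.333, adjusted 0.922). Control replicate 3 decided much of this mean, and without it the difference was -357 bp in place of -831 bp. With an equal number of peaks from each library it turned to 14.5 bp, at 1831 and 1435 bp in lactate replicates 2 and 3, against 1095 and 2142 bp in control replicates 2 and 3, so that the groups overlapped.

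Of 5 regions at HKDC1, 3 were found in all 4 libraries. The pair at chr10:69248173-69248901 and chr10:69249715-69250662 lies near the middle of the gene, and the third is the region shared with HK1. In the first of the pair the fold enrichment was 5.69 and 8.61 in lactate replicates 2 and 3, against 9.74 and 13.6 in control replicates 2 and 3, so that both lactate values lay below both control values. In the second the peaks were 464 and 359 bp wide in lactate replicates 2 and 3, against 895 and 948 bp in control replicates 2 and 3. Its fold enrichments overlapped, at 9.56 and 6.12 in lactate against 5.91 and 10.7 in control replicates 2 and 3. In the region shared with HK1 the fold enrichment was 3.57 and 3.62 in lactate replicates 2 and 3, against 8.94 and 11.4 in control replicates 2 and 3.

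HK2, at chr2:74834127-74893359 on the plus strand, spans 59233 bp, has 2 annotated starts and is flanked upstream by the divergent noncoding HK2-DT. Its window held 3 and 5 peaks in lactate replicates 2 and 3, against 3 peaks in each control library. They covered 1229 and 1773 bp in lactate replicates 2 and 3, against 1567 and 1361 bp in control replicates 2 and 3. The groups overlapped in both measures, and among all deposited peaks HK2 was the only one of the 4 genes with peaks whose covered length did not separate them. The covered length averaged 1501 ± 385 bp in lactate and 1464 ± 146 bp in control libraries (SD, n = 2 each; exact permutation p = 1). The sign of this difference of 37 bp turned when a single library was left out: it was -235 bp without lactate replicate 3 and -66 bp without control replicate 3. When the lists were cut to equal length, the groups separated the other way, at 1229 and 1773 bp in lactate replicates 2 and 3, against 425 and 1042 bp in control replicates 2 and 3 (exact permutation p = 0.333). The difference was then 767.5 bp.

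The positions of the HK2 peaks differed more between the treatments than their length did. Of 7 regions, 1 held a peak in all 4 libraries, 2 were lactate-only (in both lactate libraries, in no control library), 1 was control-only (in both control libraries, in no lactate library), and 3 had other combinations. Over all 71122 merged regions of the series, 28.8% were in all 4 libraries, 2.75% were lactate-only and 14.6% were control-only. The lactate-only regions at chr2:74878619-74879029 and chr2:74880077-74880494 lie close together. Their fold enrichments in lactate replicates 2 and 3 were 8.68 and 7.44 in the first and 12.5 and 8.30 in the second. The region in all libraries, at chr2:74881640-74882258, is the next one downstream, and the control-only region at chr2:74874245-74875025, with fold enrichments of 5.42 and 7.61 in control replicates 2 and 3, is the next one upstream. So both groups had peaks in this stretch, and within it the lactate-only pair lay downstream of the control-only region. Upstream of that region, chr2:74866265-74866655 held a peak in lactate replicate 3 and control replicate 3, with fold enrichments of 9.62 and 5.32. With peaks at a −log10 q of at least 5, or with an equal number of 37951 peaks from each library, the control-only region was no longer called in both control libraries, while 2 regions were lactate-only under either setting.

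The Jaccard index, the bases shared by the peaks of a pair of libraries over the bases in either, puts this in 1 number per gene. Within the HK2 window it was 0.532 between the lactate libraries and 0.408 between the control libraries, and 0.126 to 0.284 across treatments. For HK3 it was 0.751 within lactate and 0.776 within control, against 0.455 to 0.597 across treatments. For HKDC1 it was 0.673 within lactate and 0.677 within control, against 0.453 to 0.665 across treatments. Within-treatment overlap exceeded every cross-treatment value at these 3 genes, at HKDC1 by a narrow margin. HK1 was different, with 0.572 within lactate and 0.418 within control, against 0.338 to 0.554 across treatments. Some cross-treatment pairs there overlapped more than the control pair did. The index was not computed over all coding genes, so how common such patterns are is not known. It was also not adjusted for the larger covered length of the control lists.

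HK3, at chr5:176880869-176899346 on the minus strand, is the shortest of the genes at 18478 bp and the most densely covered. Its window held 7 and 6 peaks in lactate replicates 2 and 3, against 6 and 5 peaks in control replicates 2 and 3. They covered 5417 and 5158 bp in lactate replicates 2 and 3, against 10514 and 9068 bp in control replicates 2 and 3. The numbers of peaks met at 6, while the covered length was lower in both lactate libraries, with a ratio of 0.540, at 5287.5 ± 183 bp in lactate and 9791 ± 1022 bp in control libraries (SD, n = 2 each; exact permutation p = 0.333, adjusted 0.922). As a share of the window, which allows genes of different length to be compared, peaks covered 19.0% and 18.1% in lactate replicates 2 and 3, against 36.9% and 31.8% in control replicates 2 and 3. This was more than in 99.3% and 99.1% of coding genes in the lactate libraries and 99.0% and 98.3% in the control libraries. These values include the part of the window inside UNC5A, described below, and the rank among coding genes was not computed without it. The share was far smaller in the other hexokinase windows. It was 0.966% and 1.64% at HK1 in lactate replicates 2 and 3, against 2.15% and 2.65% in control replicates 2 and 3. At HK2 it was 1.78% and 2.56% in lactate, against 2.26% and 1.97% in control, and at HKDC1 3.20% and 2.51% in lactate, against 3.48% and 5.13% in control, always replicates 2 and 3. HKDC1 had a larger share than HK1 in each library, and the order of HK2 and HKDC1 turned between the lactate replicates.

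The control libraries joined what the lactate libraries held as separate peaks at the downstream end of HK3. The region chr5:176875608-176882539 begins in UNC5A, a netrin receptor gene of the opposite strand whose annotated end overlaps that of HK3. There, lactate replicate 2 held 3 peaks of 471, 461 and 1928 bp and lactate replicate 3 held 2 peaks of 444 and 2019 bp. Control replicate 2 held 1 peak of 6881 bp, and control replicate 3 held 2 peaks of 632 and 5189 bp. The strongest fold enrichment in this region was 5.90 and 4.03 in lactate replicates 2 and 3, against 16.6 and 18.0 in control replicates 2 and 3. By fold enrichment this peak ranked 148 and 175 within the lists of control replicates 2 and 3.

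Part of this signal belongs to UNC5A by position, and the gene that it marks cannot be told apart where the genes meet. In the part of the window inside UNC5A, peaks covered 2423 and 1925 bp in lactate replicates 2 and 3, against 5030 and 4342 bp in control replicates 2 and 3. In the rest, which holds nearly all of HK3, they covered 2994 and 3233 bp in lactate replicates 2 and 3, against 5484 and 4726 bp in control replicates 2 and 3. The covered length was lower in both lactate libraries on either side of the boundary, with ratios of 0.464 in UNC5A and 0.610 beyond it (exact permutation p = 0.333 each). The widest peak of every library crosses the boundary and adds to both sides, so the sides are not independent. The split at UNC5A was chosen after the values were seen.

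Further upstream in HK3, 3 regions between chr5:176886685 and chr5:176891748 held peaks in all 4 libraries. In the first, at chr5:176886685-176888923, each lactate library had 2 peaks, control replicate 2 had 2 peaks and control replicate 3 had 1 peak of 2190 bp. Its strongest fold enrichment was 11.3 and 10.7 in lactate replicates 2 and 3, against 9.14 and 12.8 in control replicates 2 and 3, so the groups overlapped. In the second, chr5:176889242-176890012, the fold enrichment was 12.0 and 7.82 in lactate against 8.77 and 8.07 in control, and in the third, chr5:176890740-176891748, it was 8.24 and 6.19 in lactate against 8.80 and 12.0 in control, always replicates 2 and 3. The values overlapped in the second and were lower in both lactate libraries in the third. The peak nearest the HK3 start, at chr5:176897787-176898245 with a fold enrichment of 8.72, was present in control replicate 2 alone.

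**Figure D2:**
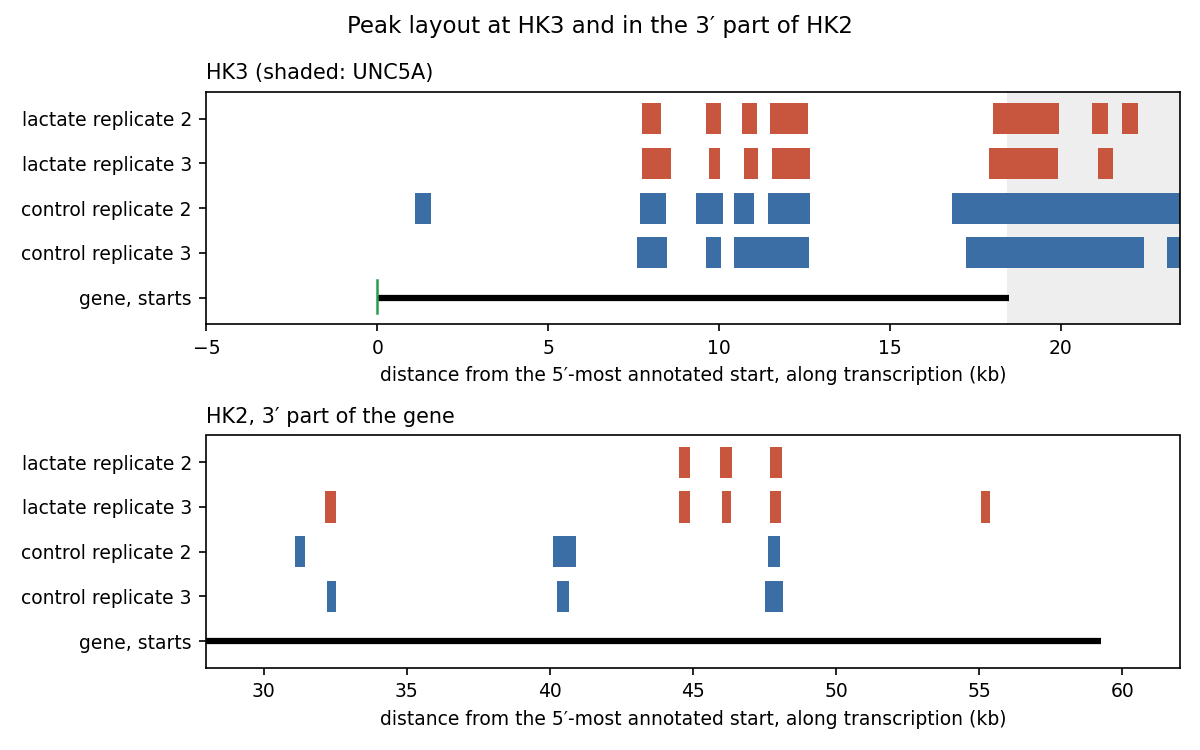
Peak layout at HK3 (shaded: UNC5A) and in the 3′ part of HK2, 1 row per library with lactate above control, against the distance in kb from the 5′-most annotated start. At HK3 the lactate rows show separate peaks of at most 1928 and 2019 bp where the control rows show peaks of up to 6881 and 5189 bp, and at HK2 the lactate-only pair lies between the control-only region and the region in all libraries.

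GCKR, at chr2:27496839-27523684 on the plus strand, spans 26846 bp and held no peak in any of the 4 libraries. The same was true of 40.6% of coding genes, so its empty window does not set it apart. The nearest peak on its upstream side was 221 and 121 kb away in lactate replicates 2 and 3, against 118 kb away in each control library. On its downstream side the nearest peak was 242 kb away in each lactate library, against 140 kb in each control library. The neighbouring gene FNDC4 lies within the same window and so held no peak either. An empty window means that no signal passed the peak caller's threshold there. The other 4 genes held a peak in every library, as did 33.0% of coding genes.

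Among all deposited peaks, the widest peak of the window was narrower in both lactate than in both control libraries at all 4 genes with peaks, but at HK1 and HKDC1 this depended on which peaks were counted. It measured 577 and 764 bp at HK1 in lactate replicates 2 and 3, against 984 and 824 bp in control replicates 2 and 3. It measured 418 and 390 bp at HK2 in lactate, against 781 and 619 bp in control replicates 2 and 3. At HK3 it was 1928 and 2019 bp in lactate against 6881 and 5189 bp in control, and at HKDC1 it was 681 and 595 bp in lactate against 895 and 948 bp in control, always replicates 2 and 3. The lactate to control ratios of the means were 0.742 at HK1, 0.577 at HK2, 0.692 at HKDC1 and 0.327 at HK3 (exact permutation p = 0.333 each, adjusted 0.979). The difference was thus steepest in the HK3 window, where the widest peak of every library has its summit in UNC5A. The HK1 value of 824 bp is the peak over TACR2. Within the gene span alone, or with summits inside the window, control replicate 3 had 615 bp, below the 764 bp of lactate replicate 3, and the groups overlapped (exact permutation p = 0.667). At HKDC1 they overlapped with an equal number of peaks from each library, where the difference was -171 bp (exact permutation p = 0.667). Over all coding genes, 30.4% had a narrower widest peak in both lactate libraries and 3.67% a wider one. These shares count the 40.6% of genes with no peak in any library, which could be neither. They are therefore lower than among genes with peaks.

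Counting each peak of the family once, there were 16 and 18 peaks in lactate replicates 2 and 3, against 16 and 20 in control replicates 2 and 3. They covered 9475 and 10217 bp in lactate replicates 2 and 3, against 16691 and 16627 bp in control replicates 2 and 3. The number of peaks thus overlapped between the groups while the covered length did not. The ratio of the lactate to the control mean was 0.944 for the number and 0.591 for the covered length, and over the whole lists it was 0.726 and 0.534. The median width of these peaks was 455 and 391.5 bp in lactate replicates 2 and 3, against 720.5 and 555 bp in control replicates 2 and 3.

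**Figure D3:**
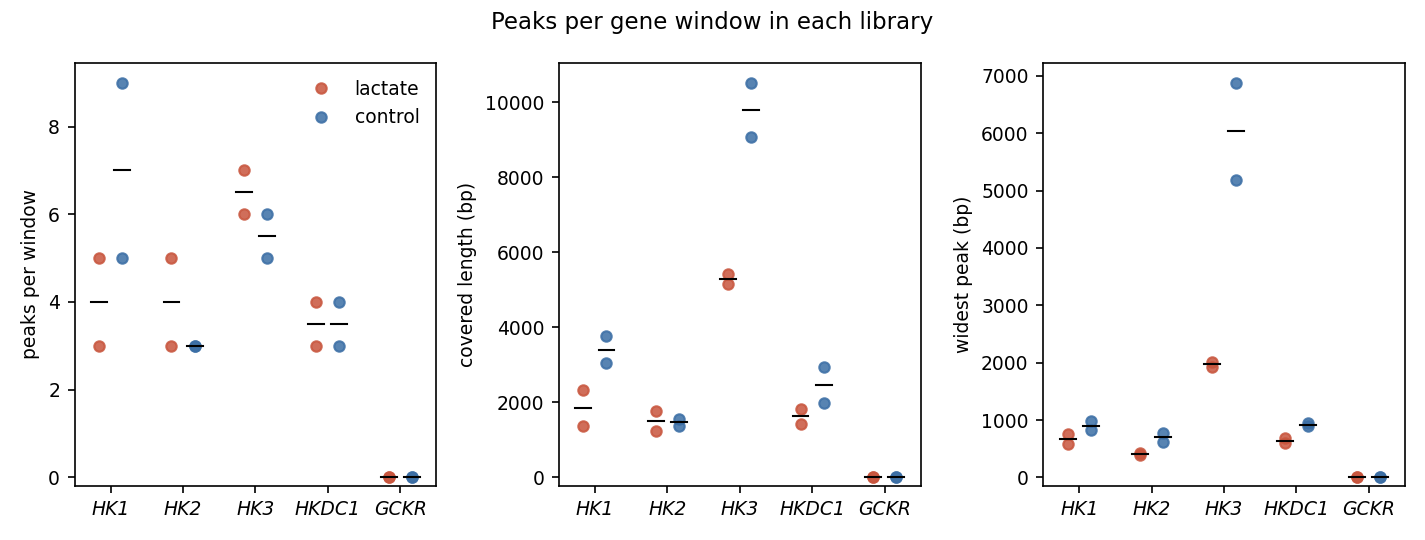
Number of peaks, covered length (bp) and widest peak (bp) of each gene window, 1 point per library (lactate left of control), with bars at the means of 2 libraries. The numbers of peaks meet or overlap at every gene. Among all deposited peaks the widest peak is smaller in both lactate libraries at each gene with peaks and the covered length at HK1, HK3 and HKDC1; under other settings the groups overlap in the widest peak at HK1 and HKDC1 and in the covered length at HKDC1.

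Over the distinct regions of the family, 10 of 25 held a peak in all 4 libraries, 2 were lactate-only and 1 was control-only, beside the 28.8%, 2.75% and 14.6% given above for all regions. All 3 treatment-specific regions lie in HK2. The summits of the 10 regions in all libraries were close together: the range over the 4 libraries had a median of 78 bp, a minimum of 29 bp and a maximum of 1502 bp, against a median of 201 bp over all 20499 such regions. The widest range belonged to the first of the upstream HK3 regions, where the strongest summits of control replicates 2 and 3 lay at opposite ends.

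Fold enrichment is a ratio, so its 2 sides were separated. The authors' fold and p-value at a summit together fix the number of ChIP reads there and the local background, under the formulas of the peak caller, and both are given as multiples of the library's genome-wide background. The reads piled up at the summits of these genes were few, from 14 to 48 and from 15 to 63 in lactate replicates 2 and 3, against 14 to 46 and 14 to 47 in control replicates 2 and 3. In the 10 regions in all libraries, each library was read at its summit of highest fold enrichment. The fold enrichment was lower in both lactate libraries in 5 and higher in none. The ChIP pileup was lower in 1 and higher in 4, and the local background was lower in 2 and higher in 6. Over all 20499 such regions, the fold enrichment was lower in 34.3% and higher in 23.2%, the pileup lower in 14.1% and higher in 41.6%, and the local background lower in 23.4% and higher in 50.7%.

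The region at the end of HK3 shows the difference between the measures. Its pileup was 50.7 and 45.4 times the genome-wide background in lactate replicates 2 and 3, against 38.7 and 42.1 times in control replicates 2 and 3. Its local background was 7.55 and 10.3 times the genome-wide one in lactate replicates 2 and 3, against 1.21 times in each control library. The reads at these summits numbered 47 and 46 in lactate replicates 2 and 3, against 46 and 47 in control replicates 2 and 3. At these summits, those of highest fold enrichment, the pileup was thus higher in both lactate libraries only as a multiple of each library's genome-wide background. The fold enrichment was lower there. Under the widest lactate peaks the local background reached 17.6 and 19.5 times in lactate replicates 2 and 3. The summits of these peaks had lower fold enrichments, of 2.81 and 3.06, but more reads, 48 and 63, with pileups of 51.8 and 62.2 times. So the highest pileup of the region was above both control libraries in reads as well.

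The region shared by HKDC1 and HK1 had the same arrangement at its strongest summits. Its pileup was 30.2 and 31.6 times in lactate replicates 2 and 3, against 20.2 and 26.0 times in control replicates 2 and 3. Its local background was 7.55 and 7.79 times in lactate replicates 2 and 3, against 1.2 times in each control library. In the formula's own units, in which a background read counts 1, this was 6.0 in both lactate libraries and 1.0 in both control libraries, so few reads set the difference. The first of the middle pair in HKDC1 had a pileup of 34.5 and 43.4 times in lactate against 20.2 and 28.7 times in control, with a local background of 5.03 and 3.90 times in lactate against the genome-wide level in control. The HK2 region in all libraries differed from these. Its pileup was 17.3 and 15.8 times in lactate replicates 2 and 3, against 23.5 and 22.4 times in control replicates 2 and 3. Its local background was at the genome-wide level in all 4 libraries, and here the pileup and the fold enrichment were both lower with lactate.

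**Figure D4:**
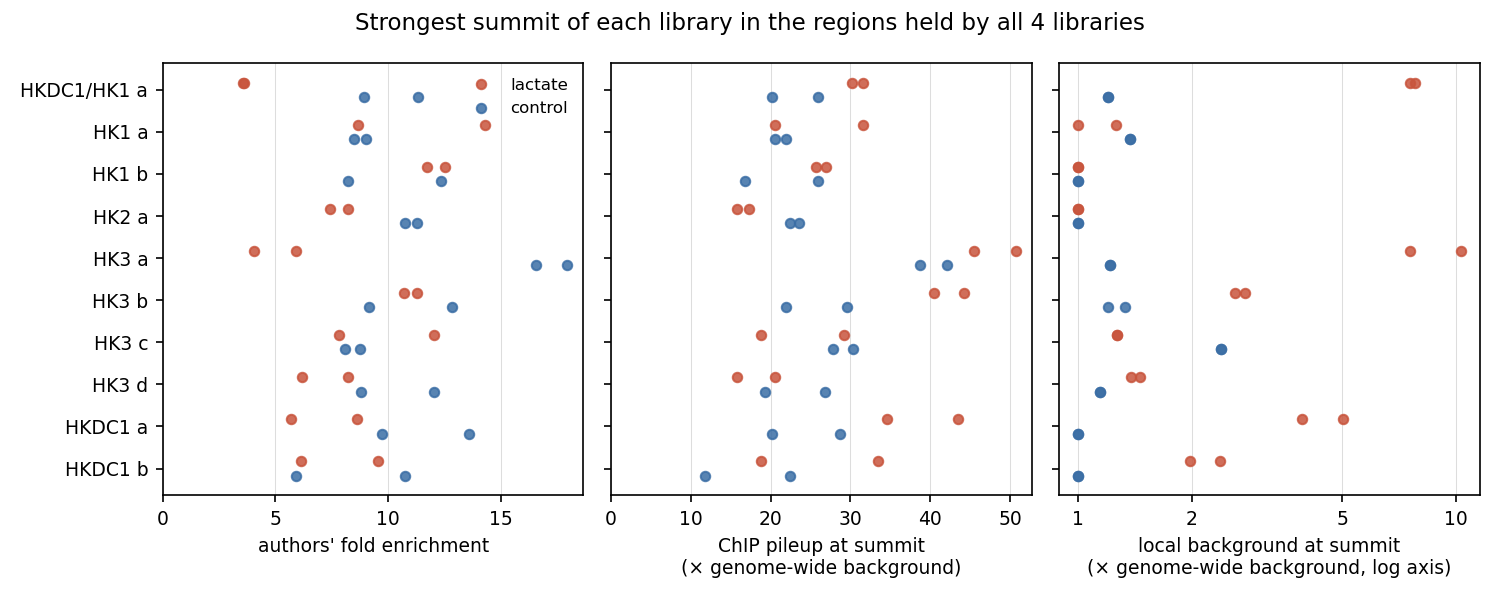
Strongest summit of each library in the 10 regions in all libraries, lettered by position within each gene: the authors' fold enrichment, the ChIP pileup and the local background, the last on a log axis, with pileup and background as multiples of the genome-wide background (lactate points above control points). Lactate points lie left of control points for fold enrichment at HKDC1/HK1 a and HK3 a, but right of them for pileup and local background.

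In these 2 of the 10 regions, at the end of HK3 and shared by HKDC1 and HK1, the local background was at least 4 times the genome-wide one in both lactate and in neither control library, as in 8.58% of all such regions. Counted by peak, a background of at least 4 times was found under 5 of 16 and 4 of 18 peaks of these genes in lactate replicates 2 and 3, against 0 of 16 and 0 of 20 in control replicates 2 and 3. Over the whole lists the shares were 15.5% and 16.3% in lactate against 7.12% and 9.11% in control replicates 2 and 3. The background libraries limit this comparison. At regions with summits within 10 bp of each other and a background above the floor in both libraries, the background in the formula's own units was equal, within 0.01, for 43.8% of 2586 regions between the lactate libraries and 92.5% of 1659 between the control libraries. Between a lactate and a control library it was equal for 7.99% to 9.69%. The labels list 1 input per treatment, and which input each library was called against is not given in the sources used here. If the libraries of a treatment share its input, a difference in local background is 1 input against 1, and input and treatment cannot be told apart in it or in the fold enrichment.

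Genes that make, move or use glucose 6-phosphate gave a wider view of the pathway. Of 17, the covered length was lower in both lactate libraries for 8 and higher for 1, 7 held a peak in all 4 libraries and 5 held none. Over all coding genes these shares were 32.8% lower, 3.4% higher, 33.0% in all 4 libraries and 40.6% with none. Their median difference was -218.5 bp, beside a median of 0 over all coding genes and -831 bp over the 5 genes of the family. The median over all coding genes counts the 40.6% with no peak in any library, whose difference can only be 0. None of these medians was adjusted for window length, so they do not set these genes apart. SLC2A1, the main glucose importer of many tumour cells, was covered over 854 and 1019 bp in lactate replicates 2 and 3, against 2800 and 2747 bp in control replicates 2 and 3. GPI, which turns glucose 6-phosphate into fructose 6-phosphate, was covered over 1050 and 767 bp in lactate, against 2438 and 1841 bp in control replicates 2 and 3. VDAC1, a mitochondrial pore protein to which hexokinases bind, was covered over 2052 and 1489 bp in lactate, against 3216 and 3240 bp in control replicates 2 and 3. H6PD, which oxidises glucose 6-phosphate in the endoplasmic reticulum, was covered over 2669 and 2277 bp in lactate, against 4713 and 4080 bp in control replicates 2 and 3. These 4 genes had separate groups, like HK3.

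The exception was ADPGK, a glucokinase that uses ADP, with 443 and 311 bp in lactate replicates 2 and 3 and no peak in either control library. The others with lower cover in both lactate libraries were G6PC3, SLC37A4, VDAC3 and GYS2. At G6PC2, PGM1 and SLC2A2 the groups overlapped, and SLC2A2, the glucose transporter of hepatocytes, had 401 and 426 bp in lactate against 405 and 500 bp in control replicates 2 and 3. No peak was found at G6PC1, PGM2, VDAC2, TIGAR or GFPT1 in any library.

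The coding genes most like each member in the share of the window covered were found by the Euclidean distance over the 4 libraries, in percentage points. They were PILRA (0.204) and ZMYND8 (0.330) for HK1, and ATP5MG (0.316) and ZDHHC18 (0.339) for HK2. For HKDC1 they were COMMD4 (0.389) and TMEM258 (0.527). For HK3 they were KRTAP10-4 (2.41) and RASA3 (2.74), which stood farther off than the nearest genes of the others.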

How the data were processed

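H4K5la ChIP-seq peak lists of PLC/PRF/5 cells were used, 2 lactate (20 mM, 24 h) and 2 control libraries, grouped by the sample labels. The build was hg38 and the tools were MACS2 2.2.6, Bowtie2 2.3.4.2, Trimmomatic 0.38, Picard 2.18.11, FastQC 0.11.7, SAMtools 1.9, RSEM and featureCounts 1.6.3, per the submitters' processing notes, which give no role for the last pair. Each list holds the peaks of 1 library. The authors' deposited columns are positions, a score, the fold enrichment at the summit (a ratio to background), −log10 p-values and −log10 q-values. The lowest −log10 q of each list was 2.00 to 2.02. They hold no read counts. A list shows where signal passed a threshold, so numbers and widths move with depth and background.

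Gene spans and starts came from RefSeq tables of GRCh38.p14, matched by symbol for all 5 genes, and exons were not used here. Peaks were counted in windows of the gene and 5 kb on either side, and covered bases were cut to the window. Groups were compared by exact two-sided permutation tests over 6 assignments, adjusted over 19974 coding genes by Benjamini and Hochberg. The counting was tested on simulated data. Reads and local background at summits were solved from the deposited fold and −log10 p. Whole reads came out for 99.996 to 100% of peaks per library, within 0.001, and for 100% of the reads in simulated sets of 400 peaks. The simulated peaks were made with the same formulas, so they cannot test whether the formulas hold. They had fewer reads and lower local backgrounds than the highest ones reported here. All members were named, with regions by mean rank of fold and the 2 genes nearest in covered share. This solution, its limit of 4 times the genome-wide background and the split of the HK3 window were added after seeing the data. The pathway list first held 1 more gene, which is not reported here and not counted. Members, lists and tests were chosen with earlier results of these data known. Python 3.11.15, pandas 2.3.3, numpy 2.4.6, scipy 1.17.1 and matplotlib 3.10.9 were used. Alternatives were a −log10 q of at least 5, equal peak numbers, windows of 0 and 10 kb, summits in place of overlap, joining within 1 kb, 50% reciprocal overlap, start windows of 0.5 and 3 kb, leaving out each library, and a replicate block.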

Additional observations from a re-analysis of the deposited data

How the results depend on the processing

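Leaving out each library in turn gave covered-length differences (lactate minus control) of -2030 to -1068 bp at HK1, -235 to 309 bp at HK2, -5226.5 to -3780.5 bp at HK3 and -1305 to -357 bp at HKDC1, so the sign turned at HK2, to -235 bp without lactate replicate 3 and -66 bp without control replicate 3. The number of peaks then differed by 0 to 2 at HK2 and by -0.5 to 0.5 at HKDC1. The widest peak kept its sign in every run with a library left out, at -327 to -140 bp for HK1, -377 to -215 bp for HK2, -4907.5 to -3215.5 bp for HK3 and -326.5 to -240.5 bp for HKDC1. When every list was cut to the same number of peaks, the covered length at HKDC1 turned to 14.5 bp higher with lactate, and the number of its peaks differed by 1, as it did with peaks joined within 1 kb. With the gene span alone the difference in the number of peaks at HK3 was 0. Control-only regions numbered 1 in the main count, 0 with a −log10 q of at least 5 or with equal peak numbers, 2 with 50% reciprocal overlap, and 1 to 7 with a library left out. Lactate-only regions numbered 2 in the main count, 4 with 50% reciprocal overlap and 2 to 3 with a library left out, and regions in all libraries 10 in the main count, 8 with 50% reciprocal overlap, 9 with equal peak numbers and 10 to 11 with a library left out. With a library left out, each class is judged on the remaining libraries alone, so these counts are not of the same class as the main count. The cause of the other changes was not tested. In all, 181 values kept their direction or size, 15 moved and 3 reversed. This tally is not a measure of stability. It includes GCKR, which held no peak in any setting, and the replicate block, which cannot change a difference. For differences only the sign was compared, so the change at HK2 from 37 to 767.5 bp with equal peak numbers counts as kept.

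Replicate numbers were used as a replicate block in a further test. Deviations of same-numbered libraries correlated at r = 0.126 over 19974 genes, with only 2 pairs, so the numbers are not known to pair the libraries. With 2 libraries per group the block leaves every difference unchanged by arithmetic, so only the p-value could differ. For the covered length of HK3, at -4503.5 bp, the exact sign-flip p was 0.5, the smallest 2 pairs allow.

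Peak lists limit what can be read: depth is unknown, a peak is a threshold passed, and the exact permutation test of 2 libraries against 2 cannot give a p below 0.333. Summits rested on 14 to 63 reads, and intervals or floors were not given because the lists hold no counts.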
